A study of Homo sapiens with 8 samples.

Results

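Pattern receptors of the innate immune system were followed in the human leukaemia line AML-OCI3, of acute myeloid origin, which had received 40 nM JIB-04, a Jumonji histone demethylase inhibitor, or its vehicle DMSO. The 10 genes are NOD1, NOD2, NLRP1, NLRP3, TLR1, TLR2, TLR4, TLR8, the co-receptor CD14 and the adaptor MYD88, taken by symbol from the 24077 genes listed at both times. The 4 groups were JIB-04 for 48 h, JIB-04 for 24 h, DMSO for 48 h and DMSO for 24 h, with 2 RNA-seq libraries each. The labels name no venetoclax or microbial ligand for any group. Nothing in the labels says whether replicates came from separate cultures, so the p-values measure only the spread between these libraries, which may be technical. The set was chosen by the counts and TPM of NOD2, which were lower at 48 h than at 24 h in DMSO, so differences between the DMSO times, and differences of NOD2 between JIB-04 and DMSO, are given as descriptions, without a test.

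Pattern receptors bind molecules that are typical of microbes or of damaged cells. Toll-like receptors sit in the surface or endosomal membrane, and most of them signal through MYD88 and IRAK kinases to NF-κB. NOD1 and NOD2 detect peptidoglycan fragments in the cytosol and signal through RIPK2, whereas NLRP1 and NLRP3 assemble inflammasomes that activate caspase-1 and release IL-1β. Monocytes and many myeloid leukaemias express several of these receptors.

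All 10 genes had a place in the hg38 annotation. NOD2 lies on chr16:50693588-50734041 (plus strand), CD14 on chr5:140631728-140633701 (minus strand), NLRP1 on chr17:5499427-5619424 (minus strand) and TLR2 on chr4:153684070-153705702 (plus strand). Counts are summed over whole genes, so they do not separate the 13 annotated transcripts of NOD2, which are 338 to 5494 nt long. Expression levels within a gene are given as CPM (counts scaled to library size with TMM factors), and levels between genes as TPM, which accounts for transcript length.

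RefSeq (GRCh38.p14) gave a promoter for 8 of the 10 genes. The 250 bases before the start are shown for NOD2 and CD14, which differed most with time, in opposite directions, and for TLR4, which held the most motif matches. The windows precede the RefSeq start, which lies 3360 bases inside the annotated gene interval for NOD2, 526 for CD14 and 228 for TLR4. Capitals mark matches on either strand to GAGGAA, a core bound by PU.1, a transcription factor of myeloid cells, or to TGACTCA, the AP-1 site.

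NOD2, chr16:50696698-50696947, plus strand: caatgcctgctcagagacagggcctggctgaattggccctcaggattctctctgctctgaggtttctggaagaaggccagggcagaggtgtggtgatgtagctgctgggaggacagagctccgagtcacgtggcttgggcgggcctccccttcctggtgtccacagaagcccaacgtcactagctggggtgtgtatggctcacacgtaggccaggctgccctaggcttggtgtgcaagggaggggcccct

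CD14, chr5:140633176-140633425, minus strand: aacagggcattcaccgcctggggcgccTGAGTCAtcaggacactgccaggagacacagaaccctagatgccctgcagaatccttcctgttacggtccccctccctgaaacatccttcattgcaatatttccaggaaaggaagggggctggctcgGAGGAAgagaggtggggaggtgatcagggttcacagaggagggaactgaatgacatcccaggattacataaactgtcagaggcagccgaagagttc

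TLR4, chr9:117704153-117704402, plus strand: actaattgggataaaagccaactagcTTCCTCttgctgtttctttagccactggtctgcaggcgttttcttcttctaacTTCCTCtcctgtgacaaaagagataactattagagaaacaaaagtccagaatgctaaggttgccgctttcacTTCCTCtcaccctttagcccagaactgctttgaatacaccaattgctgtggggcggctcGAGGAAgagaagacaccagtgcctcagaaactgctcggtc

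GAGGAA or its complement was found 4 times before TLR4, at 224 to 219, 171 to 166, 99 to 94 and 40 to 35 bases before the start. It occurred once each before CD14, NLRP3 and MYD88, so that 4 of the 8 promoters held it, against 23.6% of 35116 promoters of that length. TGACTCA occurred before CD14 alone among the 8, at 223 to 217 bases, against 4.2% of all promoters. TTGCNNAA, a pattern bound by C/EBP factors, occurred once, before TLR8, against 9.05% of all. The NF-κB consensus, also searched on both strands, matched none of the 8 windows and 5.21% of all, and the NOD2 window held none of the 4 patterns. The 4 patterns overlapped at none of these matches. The matches are a description of letters in this window.

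The 8 libraries held 18783093 to 22193377 counts. On the TMM-scaled library sizes of the tested genes, 1 count was worth 0.0453 to 0.0544 CPM. The 10 myeloid markers checked were all detected, at a summed 736 to 919 TPM. Their mean TPM ran from 250 for LYZ and 210 for CD68 down to 1.01 for MPO and 0.939 for ITGAM. Markers of B, T or NK, erythroid, megakaryocyte, epithelial and fibroblast cells summed to at most 3.32 TPM per list. These sums cover only genes listed at both times, which were 4 of 7, 3 of 8, 1 of 6, 3 of 5, 1 of 5 and 3 of 6, in that order. In every group but DMSO 48 h, replicate differences followed gene GC content. Spearman's rho between GC content and the replicate difference (replicate 2 minus 1) was -0.835 for JIB-04 48 h, -0.879 for JIB-04 24 h, -0.0224 for DMSO 48 h and 0.802 for DMSO 24 h, across 9528 genes that are not independent. TLR1, TLR2, TLR4 and TLR8 have 39.2% to 39.6% GC in their longest transcript, the 12th to 14th percentile of tested genes, whereas the 6 other genes have 49.9% to 58.0%. For the 10 genes, the results below therefore carry, where it changed a call, the value after the GC trend of each library was removed.

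**Figure D1:**
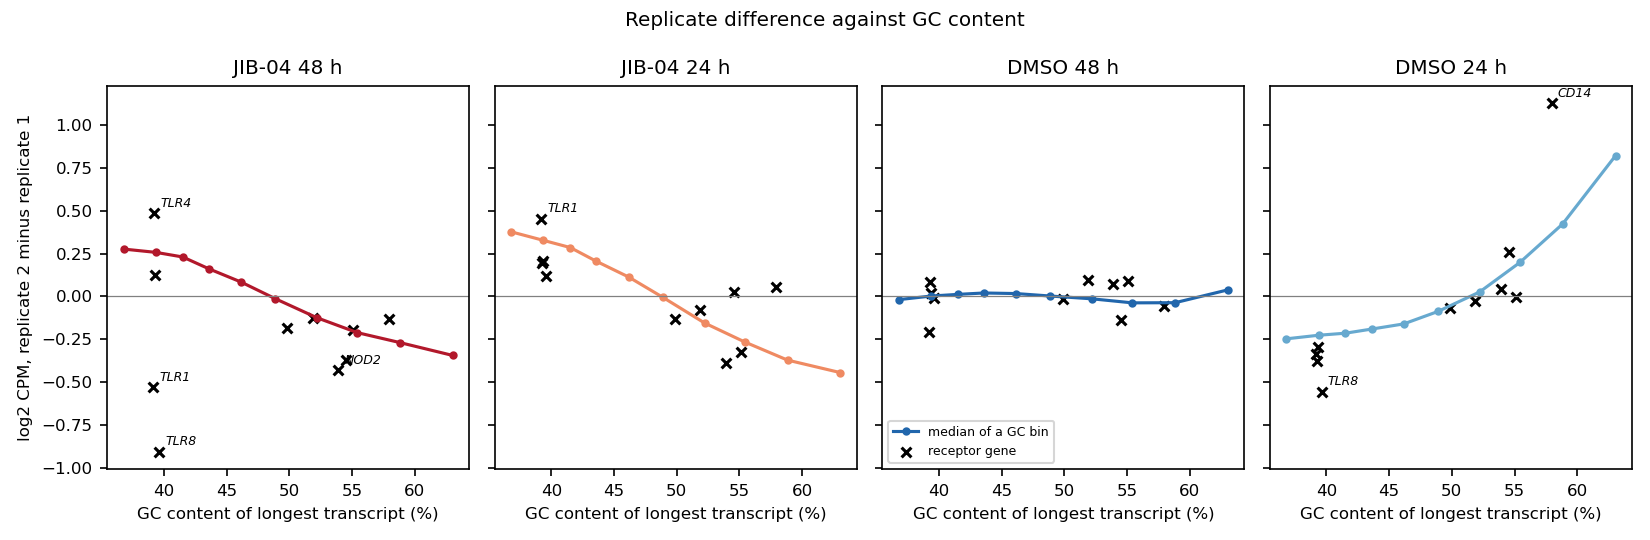
Log2 CPM of replicate 2 minus replicate 1 (y axis) against GC content of the longest transcript in percent (x axis), for the 4 groups. Lines join medians of GC bins of 952 or 953 genes and crosses are the receptor genes. The line is nearly flat in DMSO at 48 h, falls in both JIB-04 groups and climbs in DMSO at 24 h, where CD14 lies highest.

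TLR2 was the most abundant of the 10 in every group and TLR8 the least. By mean TPM in each group, TLR2 stood at 82.7 for JIB-04 48 h, 89.2 for JIB-04 24 h, 86.8 for DMSO 48 h and 70.6 for DMSO 24 h, the 86.8th to 90.3rd percentile of tested genes. NLRP3 followed at 48.7 to 59.2 TPM, then MYD88 at 28.3 to 37.9 and NLRP1 at 6.38 to 13.7, with no overlap between neighbours within a group. TLR4 and NOD1, at 4.57 to 6.36 and 4.38 to 5.18 TPM, overlapped in every group. CD14, TLR1 and NOD2 lay between 0.22 and 1.74 TPM and changed order between groups. TLR8 was at 0.135 to 0.205 TPM.

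The surface receptors TLR2, TLR1 and TLR4 did not pass the threshold, an adjusted p under 0.05, in any contrast tested on the counts as deposited, and TLR2 had JIB-04 and DMSO libraries apart at both times. TLR2 pairs with TLR1 or TLR6 to recognise bacterial lipopeptides. It was at 153 and 166 CPM for JIB-04 48 h, 151 and 175 for JIB-04 24 h, 178 and 180 for DMSO 48 h and 138 and 113 for DMSO 24 h. The JIB-04 libraries thus lay above DMSO at 24 h and below it at 48 h, and the DMSO 24 h libraries were the lowest of all. In bulk RNA such as this, fewer cells with a transcript and less of it per cell cannot be told apart. The log2 fold change with JIB-04 was 0.38 ± 0.13 (SE) at 24 h (edgeR's quasi-likelihood test, Benjamini-Hochberg adjusted p = 0.384) and -0.17 ± 0.13 at 48 h (adjusted p = 0.708). The change of the JIB-04 effect between the times was -0.54 ± 0.19 (adjusted p = 0.931, unadjusted p = 0.0191). After removal of the GC trend these values were 0.24 ± 0.06 (adjusted p = 0.0391), -0.15 ± 0.06 (0.166) and -0.39 ± 0.09 (0.0747), so TLR2 passed at 24 h only in that fit and in the same fit with a replicate block.

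TLR1 had few reads, with counts of 36 and 28 for JIB-04 48 h, 30 and 38 for JIB-04 24 h, 38 and 37 for DMSO 48 h and 49 and 42 for DMSO 24 h. The groups overlapped in CPM in every contrast. Its log2 fold change with JIB-04 was -0.39 ± 0.31 at 24 h (adjusted p = 0.708) and -0.15 ± 0.31 at 48 h (0.907). TLR4, the receptor for lipopolysaccharide, was at 15.2 and 21.3 CPM for JIB-04 48 h, 18.8 and 21.6 for JIB-04 24 h, 17.2 and 18.2 for DMSO 48 h and 25.6 and 19.7 for DMSO 24 h. Its JIB-04 and DMSO libraries overlapped at both times, and its log2 fold changes were 0.04 ± 0.20 at 48 h (adjusted p = 0.964) and -0.16 ± 0.20 at 24 h (0.835). LY96, whose product MD-2 is the partner that lets TLR4 bind lipopolysaccharide, had at most 1 count in a library, and LBP, the plasma protein that delivers lipopolysaccharide, had at most 3. Both were chosen after their values were seen.

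CD14, the co-receptor that hands lipopolysaccharide to TLR4 and a marker of monocytes, was higher at 48 h than at 24 h in both treatments, at a low level. Its counts were 48 and 50 for JIB-04 48 h, 19 and 18 for JIB-04 24 h, 34 and 37 for DMSO 48 h and 9 and 24 for DMSO 24 h. These correspond to 2.61 and 2.37 CPM for JIB-04 48 h, 0.875 and 0.913 CPM for JIB-04 24 h, 1.75 and 1.68 CPM for DMSO 48 h and 0.446 and 1.09 CPM for DMSO 24 h. The 48 h libraries lay above the 24 h libraries within each treatment. Between the JIB-04 times, whose libraries the choice of the set did not use, CD14 differed by 1.47 ± 0.37 on the log2 scale, a 2.79-fold ratio of mean CPM (adjusted p = 0.264, unadjusted p = 0.0038). It passed with the GC trend removed (1.40 ± 0.32, adjusted p = 0.0325). Between the DMSO times the difference was 1.14 ± 0.39, and it was 0.65 without DMSO 24 h replicate 1 and 1.93 without DMSO 24 h replicate 2. With JIB-04 against DMSO, CD14 differed by 0.54 ± 0.35 at 48 h (adjusted p = 0.663) and by 0.21 ± 0.41 at 24 h (0.917). By CPM the JIB-04 and DMSO libraries did not overlap at 48 h and overlapped at 24 h. By TPM they overlapped at both times, with 1.84 and 1.63 for JIB-04 48 h and 1.31 and 1.91 for DMSO 48 h. Over 15 alternatives the 48 h value lay between 0.18 and 0.61.

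TLR8, the endosomal receptor for single-stranded RNA, was near the limit of counting. Its counts were 13 and 7 for JIB-04 48 h, 12 and 12 for JIB-04 24 h, 8 and 9 for DMSO 48 h and 9 and 6 for DMSO 24 h. The exact Poisson 95% interval of the lowest count, 6, ran from 2.2 to 13.1, and that of the highest, 13, from 6.92 to 22.2. Intervals of this kind cover counting error only. No difference in TLR8 was detectable at this depth, with log2 fold changes with JIB-04 of 0.32 ± 0.52 at 48 h (adjusted p = 0.878) and 0.69 ± 0.51 at 24 h (0.687).

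MYD88, the adaptor shared by most Toll-like receptors and the IL-1 receptor, varied little by CPM. It was at 56.4 and 51.8 CPM for JIB-04 48 h, 58.0 and 54.8 for JIB-04 24 h, 61.7 and 66.0 for DMSO 48 h and 59.2 and 58.2 for DMSO 24 h. The JIB-04 libraries lay below the DMSO libraries at both times, narrowly at 24 h. By TPM the gap at 48 h was wider, with 28.5 and 28.2 for JIB-04 and 36.1 and 39.7 for DMSO. The ratio of JIB-04 to DMSO at 48 h was 0.748 by TPM and 0.848 by CPM. The log2 fold changes were -0.24 ± 0.11 at 48 h (adjusted p = 0.559) and -0.06 ± 0.11 at 24 h (0.914). With the GC trend removed the value at 48 h was -0.24 ± 0.06 and passed (adjusted p = 0.0446), though not when a replicate block was added.

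**Figure D2:**
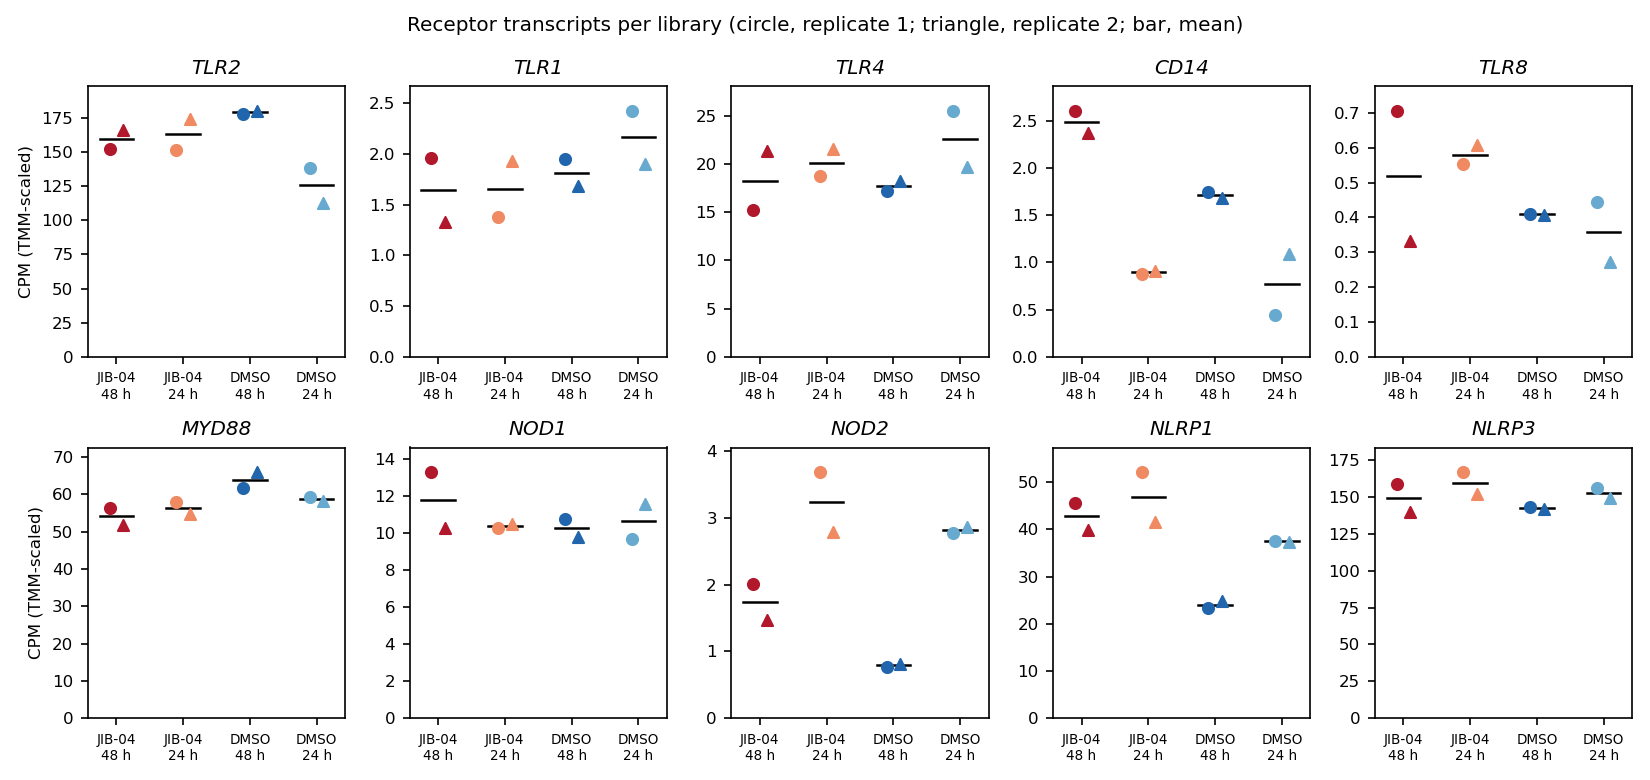
CPM (TMM-scaled, y axis from 0) of each receptor gene in the 8 libraries. Circles are replicate 1, triangles replicate 2 and bars the mean of a group, with JIB-04 at 48 h and 24 h left of DMSO at 48 h and 24 h. NOD2 is lowest in DMSO at 48 h (0.771 and 0.817 CPM), NLRP1 is lowest in the same libraries (23.3 and 24.7 CPM), and CD14 is highest with JIB-04 at 48 h (2.61 and 2.37 CPM).

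NOD2 was lower at 48 h than at 24 h in both treatments, and its 48 h level was higher with JIB-04 than with DMSO. NOD2, the sensor of muramyl dipeptide, had counts of 37 and 31 for JIB-04 48 h, 80 and 55 for JIB-04 24 h, 15 and 18 for DMSO 48 h and 56 and 63 for DMSO 24 h. This gave 2.01 and 1.47 CPM for JIB-04 48 h, 3.68 and 2.79 CPM for JIB-04 24 h, 0.771 and 0.817 CPM for DMSO 48 h and 2.77 and 2.86 CPM for DMSO 24 h. The DMSO 48 h libraries were the lowest, the JIB-04 48 h libraries lay next, and the 24 h libraries of both treatments overlapped. The count of 15 had an exact Poisson 95% interval of 8.4 to 24.7 and that of 18 one of 10.7 to 28.4.

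Between the DMSO times, the contrast that chose it, NOD2 differed by -1.82 ± 0.29 on the log2 scale. In the JIB-04 libraries, which that choice did not use, the difference between 48 h and 24 h was -0.90 ± 0.26 (adjusted p = 0.362, unadjusted p = 0.0081). It passed with the GC trend removed (-0.95 ± 0.22, adjusted p = 0.0354). JIB-04 against DMSO gave 1.12 ± 0.30 at 48 h, a 2.19-fold ratio of mean CPM, and 0.20 ± 0.25 at 24 h. These contrasts rest on the DMSO values by which NOD2 was chosen, so they carry no test.

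NOD2 levels by TPM and by CPM differed at 24 h. The TPM values were 0.73 and 0.39 for JIB-04 48 h, 1.25 and 0.85 for JIB-04 24 h, 0.2 and 0.24 for DMSO 48 h and 1.26 and 1.73 for DMSO 24 h. At 24 h the ratio of JIB-04 to DMSO was 1.15 by CPM but 0.702 by TPM, with JIB-04 libraries all below DMSO by TPM. Between the DMSO times NOD2 was 3.54-fold lower by CPM and 6.80-fold lower by TPM. The transcript length implied by count and TPM, relative to other genes and to the gene's own mean, was 0.896 and 1.22 for JIB-04 48 h, 1.08 and 1.21 for JIB-04 24 h, 1.31 and 1.16 for DMSO 48 h and 0.778 and 0.596 for DMSO 24 h. Its spread was at the 99.1st percentile of 11787 genes, which all cleared a TPM floor in every library that NOD2 did not clear. The length behind the NOD2 TPM thus varied more between libraries than that of most of these better expressed genes. A wide spread was not particular to NOD2, since TLR1 stood at the 99.0th percentile, CD14 at the 96.7th, NOD1 at the 93.8th and TLR8 at the 88.0th. With these lengths as offsets, an alternative chosen after seeing the data, the value for JIB-04 against DMSO at 24 h was -0.54 (the cause was not tested).

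NOD1, the sensor of diaminopimelic acid peptides, showed no separation of groups. It was at 13.3 and 10.2 CPM for JIB-04 48 h, 10.3 and 10.4 for JIB-04 24 h, 10.7 and 9.76 for DMSO 48 h and 9.66 and 11.6 for DMSO 24 h. Its groups overlapped in each contrast, and the log2 fold changes with JIB-04 were 0.20 ± 0.18 at 48 h (adjusted p = 0.749) and -0.04 ± 0.18 at 24 h (0.977). A p above the threshold does not show that NOD1 levels were equal.

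NLRP1, a sensor of proteases and viral activity that forms an inflammasome, was higher in the JIB-04 than in the DMSO libraries at each time, without overlap. It was at 45.7 and 39.8 CPM for JIB-04 48 h, 52.1 and 41.6 for JIB-04 24 h, 23.3 and 24.7 for DMSO 48 h and 37.5 and 37.4 for DMSO 24 h. The DMSO 48 h libraries stood lowest, and the JIB-04 libraries overlapped between times by CPM. By TPM the JIB-04 48 h libraries (11.7 and 10.8) lay below the JIB-04 24 h libraries (15.1 and 12.4). At 48 h the log2 fold change was 0.83 ± 0.15, a 1.78-fold ratio of means (adjusted p = 0.0846, unadjusted p = 0.000452), just outside the threshold. DESeq2 gave 0.82 and an adjusted p of 0.00186, edgeR on the 48 h libraries alone 0.82 and 0.00574, and the fit with the GC trend removed 0.78 and 0.00100. The authors' deposited table lists 0.82 with an adjusted p of 6.08e-05, the only one of the 10 genes it marks as changed at 48 h. Over 15 alternatives the 48 h value lay between 0.71 and 0.93 and its adjusted p between 0.00100 and 0.786. At 24 h it was 0.32 ± 0.15 (adjusted p = 0.483) and 0.36 ± 0.08 with the GC trend removed (0.0260). Between the DMSO times it was -0.64 ± 0.15. The change of the JIB-04 effect with time was 0.51 ± 0.21 (adjusted p = 0.931, unadjusted p = 0.0402).

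NLRP3, the inflammasome sensor of potassium efflux and membrane stress, was at 158 and 140 CPM for JIB-04 48 h, 167 and 152 for JIB-04 24 h, 143 and 142 for DMSO 48 h and 156 and 149 for DMSO 24 h. The libraries of JIB-04 and DMSO overlapped at both times. Its log2 fold changes were 0.06 ± 0.11 at 48 h (adjusted p = 0.886) and 0.06 ± 0.11 at 24 h (0.897). It had the smallest spread over the 8 libraries of the 10 genes, with a highest-to-lowest CPM ratio of 1.19.

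Across the set, none of the genes passed in any tested contrast by edgeR's test on the counts as deposited. Overlap of libraries was judged by CPM in the counts below. By TPM, CD14 overlapped between JIB-04 and DMSO at 48 h. Also by TPM, NLRP1, NLRP3 and TLR2 were apart between the JIB-04 times, lower at 48 h. With JIB-04 against DMSO at 48 h, 0 of the 9 genes other than NOD2 passed (0.387% of 15248 genes did), 1 of 9 had an unadjusted p under 0.05 (9.69% did), and 4 of 9 had libraries that did not overlap (49.5% did), with NLRP1 and CD14 above DMSO and TLR2 and MYD88 below. At 24 h, 0 of the same 9 passed (0% of all genes, while DESeq2 called 0.597%), 1 of 9 had an unadjusted p under 0.05 (10.8%), and 4 of 9 did not overlap (33.8%), with NLRP1, TLR2 and TLR8 above DMSO and MYD88 below. Between the JIB-04 times, 0 of 10 passed (0.203%), 2 of 10 had an unadjusted p under 0.05 (8.57%), and 2 of 10 did not overlap (32.7%). The change of the JIB-04 effect with time, tested for all but NOD2, called 0 genes (0%), with 2 at an unadjusted p under 0.05 (5.23%) and none by DESeq2 (0.0787%). DESeq2 called NLRP1 at 48 h (0.971% of all genes) and none of the genes tested at 24 h (0.597%) or between the JIB-04 times (0.662%). The 48 h libraries fitted alone called NLRP1 (2.86% of all genes), as did the authors' deposited table (3.43% of the genes with an adjusted p). Once the GC trend was removed, 2 of 9 passed at 48 h (8.05%), 2 of 9 at 24 h (10.7%), 2 of 10 between the JIB-04 times (6.56%) and 0 in the change of the effect (1.08%). With a replicate block as well, 1 of 9 passed at 48 h (6.54%), 2 of 9 at 24 h (8.68%) and 2 of 10 between the JIB-04 times (5.22%). The median log2 fold change of the 10 was 0.13 at 48 h and 0.13 at 24 h, against 0.01 and 0.02 over all tested genes. This median includes NOD2, which was chosen on its DMSO values, so it is a description. Without NOD2 the median was the NLRP3 value, 0.06 at each time. In DMSO between the times, 7 of 10 did not overlap (44.6% of all genes did not, and 0.426% passed the test), all but NOD1, TLR1 and TLR8. The set was selected on this contrast, so nothing is read from that count.

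**Figure D3:**
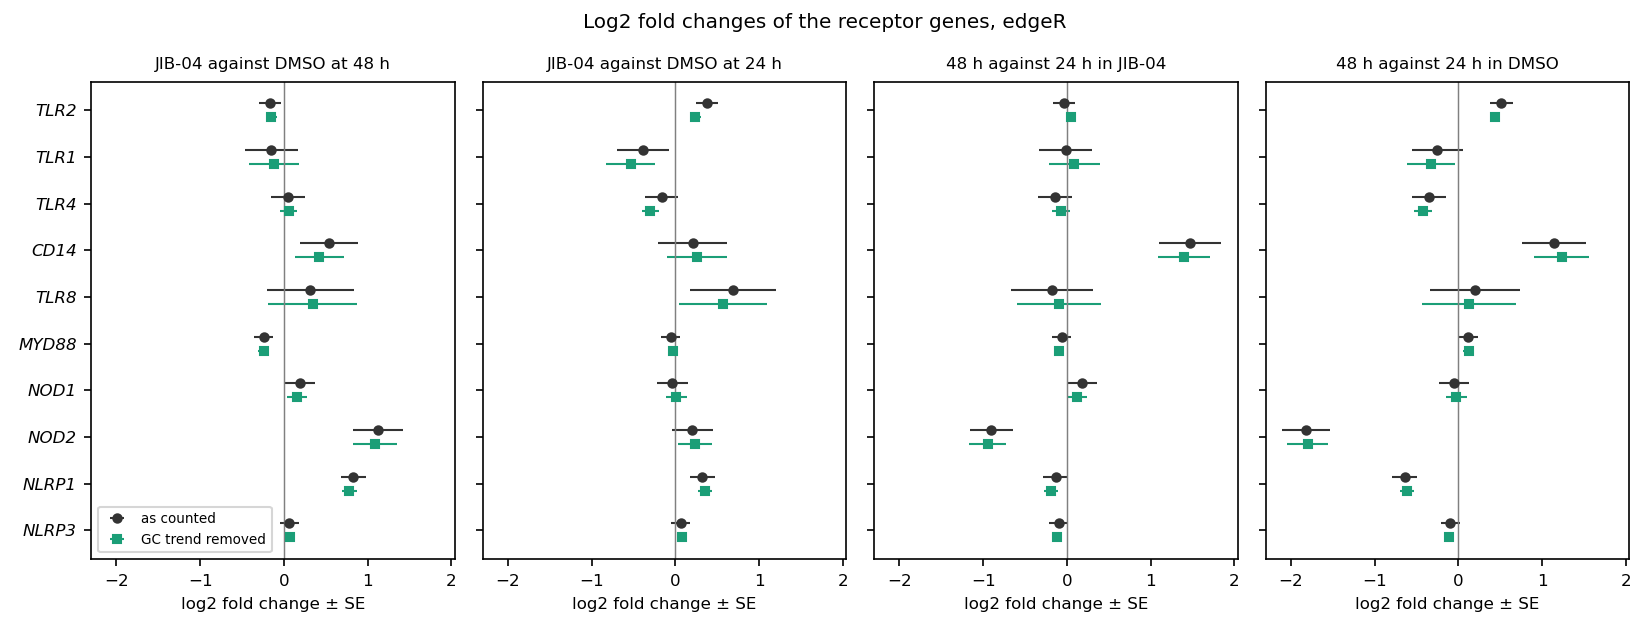
Log2 fold changes with SE (x axis) of the receptor genes (rows) in 4 contrasts, from edgeR on the counts as deposited (circles) and with the GC trend of each library removed (squares). NLRP1 and NOD2 lie right of 0 with JIB-04 at 48 h (0.83 and 1.12), and NOD2 and CD14 lie on opposite sides of 0 between the times in both treatments.

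The genes whose pattern over the 8 libraries was most like that of NOD2 were found by the root mean square difference of log2 CPM centred on each gene's mean, over 11838 genes with a mean log2 CPM of at least 1. CDH24, a cadherin, differed by 0.166, S100A4, a calcium-binding protein, by 0.246, TP63, a p53-family factor, by 0.251, ANXA1, an annexin, by 0.263 and CD163, a scavenger receptor of macrophages, by 0.273. The median over all genes was 0.775. CDH24 averaged 9.23 CPM for JIB-04 48 h, 18.8 for JIB-04 24 h, 4.58 for DMSO 48 h and 14.6 for DMSO 24 h.

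Of the signalling partners, 70 of the genes listed were tested, in 7 groups, and none passed with JIB-04 in edgeR's test on the counts as deposited. At 48 h, 12 of the 70 had an unadjusted p under 0.05 (17.1%, against 9.69% of all genes) and DESeq2 called 2 (2.86%, against 0.971%). At 24 h, 16 had an unadjusted p under 0.05 (22.9%, against 10.8%) and DESeq2 called 2 (2.86%, against 0.597%). With the GC trend removed, 13 of 70 passed at 48 h, 10 higher and 3 lower (18.6%, against 8.05% of all genes, 4.38% higher and 3.67% lower), and 14 of 70 at 24 h, 13 higher and 1 lower (20%, against 10.7% of all genes, 5.61% higher and 5.09% lower). These shares are given as descriptions, since the lists were chosen with results of these data known.

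Among adaptors and kinases, 23 of 23 were tested and 0 passed in either direction. Their median log2 fold change was 0.16 at 48 h and 0.28 at 24 h, with 17 of 23 above 0 at 48 h (52.3% of all genes) and 19 of 23 at 24 h (53.1% of all genes). Over 15 alternatives 13 to 18 lay above 0 at 48 h and 13 to 21 at 24 h. After removal of the GC trend the median was 0.03 at 48 h, with 13 of 23 above 0, and 0.19 at 24 h. IRAK1, the kinase recruited by MYD88, was their most abundant gene by mean TPM (86.0) and had 0.32 ± 0.23 at 48 h (adjusted p = 0.690). IKBKB, a kinase that releases NF-κB, had -0.13 ± 0.11 (0.722), and CARD9, an adaptor of lectin receptors, 0.32 ± 0.41 (0.830).

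Of 17 inflammasome partners and effectors, 16 were tested and 0 passed with JIB-04 (medians 0.28 at 48 h and 0.20 at 24 h, with 12 of 16 above 0 at each time). After the GC trend was removed the medians were 0.16 at 48 h and 0.06 at 24 h, and over 15 alternatives they lay between 0.12 and 0.30 at 48 h and between 0.05 and 0.32 at 24 h. IL1B encodes the cytokine that inflammasomes mature. IL1B levels at 48 h were 133 and 126 CPM with JIB-04 and 80.9 and 81.3 in DMSO. The IL1B value was 0.68 ± 0.11 (adjusted p = 0.0550), just outside the threshold. DESeq2 called this difference (0.66, adjusted p = 0.000592), and so did the fit after removal of the GC trend (0.69, 0.000427). That GC fit called IL1B higher with JIB-04 at the earlier time too (0.39, 0.00636). CASP4, which detects cytosolic lipopolysaccharide, had 0.17 ± 0.13 (0.703) and TXNIP, a binder of NLRP3, 0.08 ± 0.12 (0.877) at 48 h. At 24 h TXNIP passed with the GC trend removed (0.34, adjusted p = 0.00849).

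The 11 negative regulators were all tested and 0 passed, with 8 of 11 above 0 at 48 h and 11 of 11 at 24 h (medians 0.20 and 0.20, against 0.01 and 0.02 over all genes). Over 15 alternatives, 8 to 9 of them lay above 0 at 48 h and 9 to 11 at 24 h. NFKBIA, the inhibitor that holds NF-κB in the cytosol, had 0.49 ± 0.12 at 48 h (adjusted p = 0.206), IRAK3, which blocks the release of IRAK kinases from the receptor, -0.20 ± 0.15 (0.707), and ERBIN, which binds NOD2, -0.05 ± 0.17 (0.951). With the GC trend removed NFKBIA passed at 48 h (0.48, adjusted p = 0.00223) and at 24 h (0.23, 0.0400). TNFAIP3, which encodes the A20 ubiquitin editor and was chosen after its values were seen, was called by DESeq2 at 48 h (0.56, adjusted p = 0.0358) and at 24 h (0.58, 0.0412), and also with the GC trend removed (adjusted p = 0.00415 and 0.00428).

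Of the other Toll-like receptors only TLR6, the second TLR2 partner, had enough counts to be tested (0.37 ± 0.25 at 48 h, adjusted p = 0.668), and TLR3 and TLR5 averaged 0.111 and 0.11 TPM. Of 8 co-receptors and chaperones 6 were tested and 0 passed. HSP90B1, a chaperone of Toll-like receptors, had 0.24 ± 0.16 at 48 h (adjusted p = 0.671), UNC93B1, which carries endosomal receptors, 0.10 ± 0.26 (0.927), and CD36, a TLR2 co-receptor, 0.13 ± 0.18 (0.853). With the GC trend removed HSP90B1 passed at 48 h (0.25, adjusted p = 0.0360) and at 24 h (0.30, 0.0162). UNC93B1 passed in that fit at 48 h with the opposite sign (-0.27, adjusted p = 0.0482). Of 13 other NLR proteins 7 were tested and 0 passed. NLRC5, an activator of class I antigen presentation, had 0.04 ± 0.21 (0.966), NLRX1, a mitochondrial NLR protein, 0.04 ± 0.25 (0.979), and NLRP12 -0.25 ± 0.18 (0.697) at 48 h. NLRP12 had -0.85 ± 0.18 at 24 h (adjusted p = 0.202), which DESeq2 called (-0.87, adjusted p = 0.0185). With the GC trend removed NLRP12 passed at 24 h (-0.82, adjusted p = 0.00186) and at 48 h (-0.36, 0.0436). Of 10 other cytosolic and lectin receptors 6 were tested and 0 passed, among them STING1, which signals cytosolic DNA (0.01 ± 0.14, 0.984), MAVS, the adaptor of RNA helicases (-0.01 ± 0.12, 0.985), and CGAS, the DNA sensor (-0.09 ± 0.13, 0.854).

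**Figure D4:**
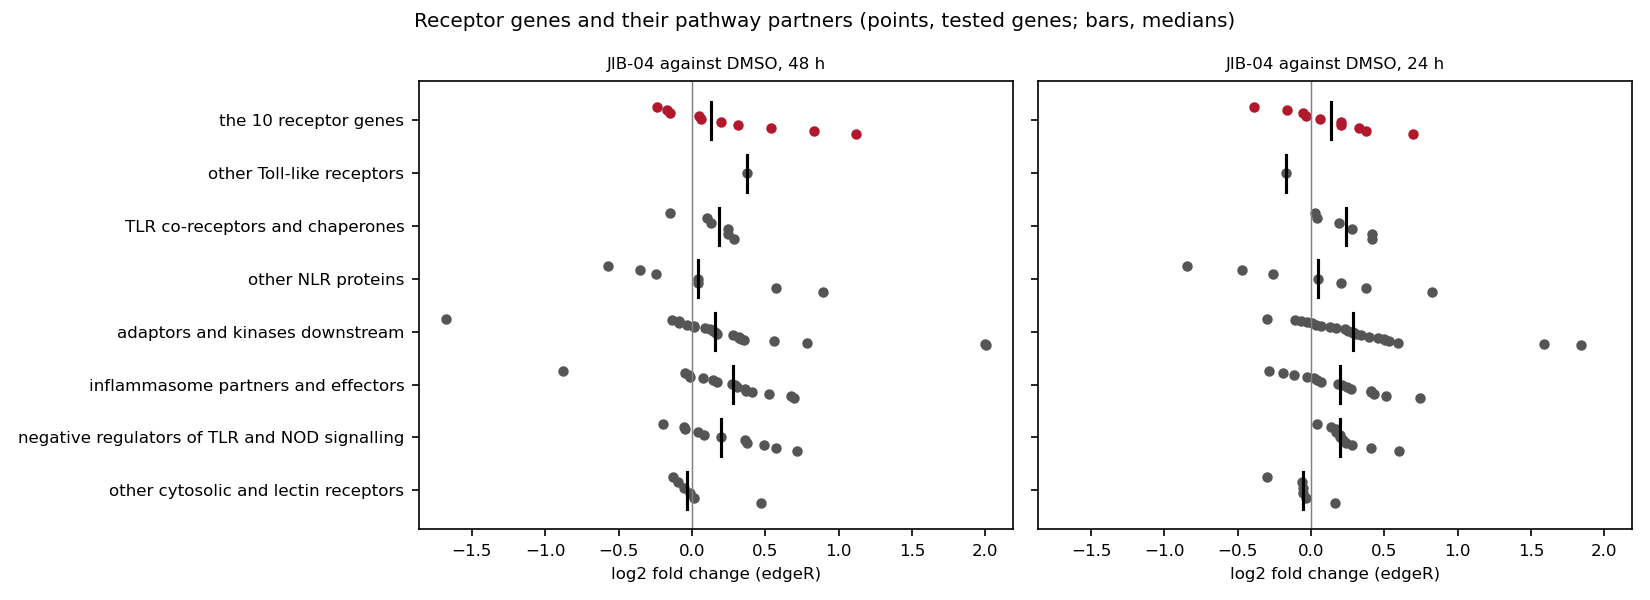
Log2 fold changes (x axis, edgeR) with JIB-04 against DMSO at 48 h and 24 h for the receptor genes and 7 lists of partner genes (rows). Points are tested genes and bars medians. The medians of the adaptors, inflammasome partners and negative regulators lie between 0.16 and 0.28 at both times in this fit. With the GC trend removed the adaptor median at 48 h was 0.03 and the inflammasome median at 24 h 0.06.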

How the data were processed

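RNA of AML-OCI3 cells was sequenced in 8 libraries, 2 for each of 4 groups. The deposited tables hold expected counts per gene, as RSEM estimates them, and TPM values, per the file headers. They also hold the authors' own log2 fold changes, p-values and adjusted p-values for JIB-04 against DMSO, per the file headers. The submitters' processing notes name cutadapt, STAR 2.6.1, RSEM and the build hg38. Of strand use in counting, the sources used here say nothing.

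These counts, whole numbers as deposited, were fitted with edgeR 4.0.16 under R 4.3.3 after filterByExpr (minimum count 10, minimum total 15), which kept 15248 of 24077 genes. One fit held all 8 libraries with TMM scaling and 1 mean per group (4 residual degrees of freedom), and quasi-likelihood F tests, two-sided, received Benjamini-Hochberg adjustment across the 15248 genes, with a threshold of 0.05. Levels between genes used the deposited TPM. Exact Poisson intervals are 95%. Alternatives were DESeq2 1.42.0, no filter, the compared groups alone, a replicate block, removal of each library's GC trend (a spline with 6 degrees of freedom on GC content in GENCODE 29, available for 15236 tested genes), both together, each library left out, and length offsets, chosen after seeing the data.

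The members and the gene lists were chosen with earlier results of these data known. Named were all 10 members, the list genes that passed in a tested contrast, the 3 of highest mean TPM in each list and the 5 genes most like NOD2. Further genes are marked as chosen after their values were seen.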

Additional observations from a re-analysis of the deposited data

How the results depend on the processing

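The number of genes passing at 48 h, between the JIB-04 times, at 24 h, in the change of the effect and between the DMSO times was 59, 31, 0, 0 and 65 in edgeR on the counts as deposited. DESeq2 gave 148, 101, 91, 12 and 227, with no adjusted p for TLR8, and no filter gave 52 between the JIB-04 times, 36 at 24 h, 1 in the change and 113 between the DMSO times. The compared groups alone gave 436 at 48 h, 4 at 24 h and 11 between the DMSO times, and length offsets 23 at 48 h and 28 between the DMSO times. With the GC trend removed the counts, in that order of contrasts, were 1227, 999, 1631, 165 and 2070. With the replicate block and the GC trend removed they were 996, 796, 1322, 85 and 1828. The replicate block alone gave 8 at 48 h, 3 between the JIB-04 times and 2 between the DMSO times. Same-numbered libraries did not deviate together in every pair of groups (correlations of 0.824, 0.112, 0.0518, 0.0445, -0.715 and -0.770 over 9529 genes). Replicate differences followed GC content in every group but DMSO 48 h, so these correlations cannot show whether replicate numbers pair the samples. The main fit did not take them as pairs, and the replicate block is given as an alternative. Leaving out 1 library at a time gave 0 to 108 genes at 48 h (0 without DMSO 48 h replicate 1 or 2), 3 to 43 between the JIB-04 times, 0 to 1 at 24 h, and 1 to 58 between the DMSO times. Where a group was left with 1 library, that library was assumed to vary like the others.

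Among the 10 receptor genes, DESeq2 and the compared groups alone each called 1 at 48 h, the GC trend removed called 2, 2 and 2 at 48 h, between the JIB-04 times and at 24 h, and the same with the replicate block called 1, 2 and 2, NOD2 being counted between the JIB-04 times only. No receptor gene was called when any 1 library was left out. Values close to 0 changed sign. NOD1 at 24 h was 0.012 with the GC trend removed and 0.012 with the block as well. Between the JIB-04 times TLR1 was 0.087 and 0.071 and TLR2 0.052 and 0.052 in those fits. NLRP3 in the change of the effect was 0.0093 in DESeq2. Length offsets gave -0.54 for NOD2 at 24 h, -0.010 for NOD1 at 48 h, 0.069 for TLR2 and 0.18 for MYD88 between the JIB-04 times, and 0.016 for NLRP3 and -0.051 for TLR1 in the change of the effect. With single libraries left out, values that changed sign ranged for JIB-04 against DMSO at 48 h, NOD1 from -0.0244 to 0.37, NLRP3 from -0.0531 to 0.15, TLR8 from -0.32 to 0.78, TLR1 from -0.47 to 0.11, TLR4 from -0.22 to 0.24; for JIB-04 against DMSO at 24 h, TLR4 from -0.34 to 0.0356, CD14 from -0.28 to 0.99, NOD1 from -0.16 to 0.10, NLRP3 from -0.00483 to 0.13; between the JIB-04 times, NLRP1 from -0.29 to 0.0373, TLR1 from -0.31 to 0.25, TLR2 from -0.13 to 0.0753, NOD1 from -0.018 to 0.36, TLR4 from -0.41 to 0.0802, TLR8 from -0.80 to 0.28, MYD88 from -0.12 to 0.00041; for the change of the effect with time, NLRP3 from -0.0702 to 0.0884, CD14 from -0.46 to 0.82, TLR1 from -0.0347 to 0.50, TLR4 from -0.0556 to 0.46, TLR8 from -0.97 to 0.0848. NOD2 with JIB-04 against DMSO at 24 h, given without a test, also changed sign, from -0.0130 to 0.39. The cause of these sign changes was not tested. TLR8, CD14, TLR1 and NOD2 rest on 6 to 80 counts per library, which limits what their values can show.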

Other observations

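IRAK2, a kinase downstream of MYD88 that was chosen after its values were seen, was at 3.10 and 2.70 CPM for JIB-04 48 h, 3.13 and 2.43 for JIB-04 24 h, 0.668 and 0.772 for DMSO 48 h, and 0.446 and 1.09 for DMSO 24 h. The JIB-04 libraries lay above the DMSO libraries at both times. The log2 fold change was 2.0 ± 0.39 at 48 h (edgeR, adjusted p = 0.108) and 1.84 ± 0.38 at 24 h (0.186), and with the GC trend removed it was 1.99 (0.0106) and 1.86 (0.0126).

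The RNA helicase sensor IFIH1, also chosen after its values were seen, was called between the JIB-04 times, higher at 48 h, by DESeq2 (0.95, adjusted p = 0.00910) and with the GC trend removed (0.99, adjusted p = 0.000762). With the GC trend removed, RIGI, the other RNA helicase sensor, was higher by 0.72 (adjusted p = 0.00201) and DHX58, their regulator, by 0.68 (0.0181) in the same contrast. RIGI and DHX58 were also chosen after their values were seen. STING1, of the same list, was lower in that fit and contrast (-0.27, adjusted p = 0.0264). Between the DMSO times, with the GC trend removed, IFIH1 had 0.59, RIGI 0.66 and DHX58 0.58, also higher at 48 h. STING1 had -0.21 there, again lower at 48 h. With JIB-04 against DMSO at 48 h, IFIH1 was higher by 0.48 with the GC trend removed (adjusted p = 0.0172). None of these genes passed in edgeR on the counts as deposited, and none of the lists was tested as a set.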
